A study of Mus musculus with 2 samples.

Results

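The actin cytoskeleton and motility genes are a list of 48 genes chosen by name, and 47 of them were found by symbol among the 22886 genes of the 2 RNA sequencing libraries. Both libraries came from C57BL/6 wild type mice with a subcutaneous LLC (Lewis lung carcinoma) tumor, from which aerobic cells were sorted by flow cytometry. One library followed a vehicle injection and the other a clodronate injection, where clodronate is a drug that kills macrophages, so each condition was measured once. The labels used here give no age, no number of mice and no dose, and they do not say how the aerobic gate was drawn. A growth protocol in the labels describes EML cells kept in stem cell factor, a line of blood progenitors, which conflicts with the tumor labels. The number of reads per library was not given in the sources used here, so the counting error of a value is unknown.

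The labelled cells were checked against lists of marker genes, chosen with earlier results of these data known. All 16 macrophage markers reached at least 10 RPKM in both libraries, with a summed level of 29257 RPKM with vehicle and 27298 RPKM with clodronate. Of these markers 9 were higher and 7 lower with clodronate. C1qc had 3984 RPKM with vehicle and 2043 RPKM with clodronate, whereas Fcgr1 had 22.5 and 42.3 RPKM and Mrc1 174 and 289 RPKM. RPKM scale a gene's reads to its transcript length and to the library's total, so levels of different genes can be compared. Of the 7 epithelial markers 3 were listed at 0 in both libraries, Epcam, Krt19 and Cldn4, and the highest value was 6.44 RPKM. None of the 6 blood progenitor markers reached 10 RPKM, and the files list Gata1 at 0. Of the 7 neutrophil markers found 4 were listed at 0 in both, S100a9 among them, but S100a8 had 12.7 and 23.1 RPKM and Csf3r 26.4 and 19.3 RPKM. Of the 8 T and NK cell markers Cd3e and Cd3g were listed at 0 in both, and Cd2 had 2.39 and 11.1 RPKM, most of a summed level of 3.54 and 12.2 RPKM. The 10 fibroblast markers summed to 161 RPKM with vehicle and 77.4 RPKM with clodronate. The values thus describe libraries rich in macrophage RNA. In such bulk samples, fewer cells of a type and less RNA per cell cannot be told apart.

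Actin is the protein of the thin filaments that give a cell its shape and drive its movement. Filaments start as branches at the Arp2/3 complex when proteins of the WASP and WAVE families switch it on, grow at one end from monomers carried by profilin, stop growing when capping protein binds, and are cut and recycled by cofilin. Small GTPases such as RHOA, RAC1 and CDC42 direct this cycle, myosin II pulls on the filaments, and talin and kindlin tie them to integrins at the membrane. Macrophages use this machinery to migrate, to form podosomes and to engulf particles, and blood cells carry their own forms of several of its proteins.

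Serum response factor is a transcription factor known to control many actin genes through the CArG box, a motif of 10 bases whose pattern is symmetric, so that a match on one strand is a match on the other. The box was searched for in RefSeq promoters of GRCm38.p6, each from 250 bases before to 50 bases after a start site. No promoter sequence was at hand for Actb, Coro1b, Rac1 and Rac2, so these were not searched. Of the 43 measured members with a promoter sequence 4 held a box, which is 9.30%, against 488 of 27025 genes, or 1.81%. These 4 promoters are shown because the box is what they have in common. They are written 5′ to 3′ on the strand of the gene with the box in capitals and up to 25 bases on either side. The Actg1 sequence is chr11:120348551-120348610 on the minus strand and its box begins 90 bases before the start site. The Myl6 sequence, from 1 of the start sites of this gene, is chr10:128493025-128493084 on the minus strand, with the box 50 bases before the start. The Myo1e sequence is chr9:70207293-70207352 on the plus strand, with the box 32 bases before the start. The Vcl sequence is chr14:20929148-20929205 on the plus strand, with the box 227 bases before the start.
Actg1: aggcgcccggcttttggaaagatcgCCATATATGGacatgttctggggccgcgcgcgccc
Myl6: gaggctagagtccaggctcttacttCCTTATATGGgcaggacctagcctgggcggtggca
Myo1e: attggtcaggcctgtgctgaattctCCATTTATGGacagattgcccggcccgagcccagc
Vcl: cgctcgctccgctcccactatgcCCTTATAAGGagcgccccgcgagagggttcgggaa

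Most of the actin machinery stood at nearly the same level in both libraries. Log2 ratios compare clodronate with vehicle after 1 was added to each RPKM, so that ratios of low genes come out too small. Genes whose mean reached 1 RPKM were kept, 10982 in all. All 47 measured members passed this filter. Their median log2 ratio was 0.06, with quartiles of -0.23 and 0.24, and 28 were above 0 and 19 below. The median of all genes kept was 0.02, with quartiles of -0.38 and 0.40. At least 1.5-fold higher in the clodronate library were 3 members, Evl, Tln1 and Fermt3, or 6.38%, against 16.6% of all genes kept. At least 1.5-fold lower were 2 members, Capzb and Fscn1, or 4.26%, against 16.3% of all genes kept. Low genes scatter more, and 46 of the 47 members had a mean of at least 20 RPKM. Among the 3702 genes that reached this floor 10.4% were higher and 10.9% lower, against 3 and 1 of the 46 members. The floor still lies far below the median of the members' mean levels, 220.0 RPKM, and a closer match of level was not tested. Without replicates none of these differences can be set against the spread between samples, and no test was made.

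**Figure D1:**
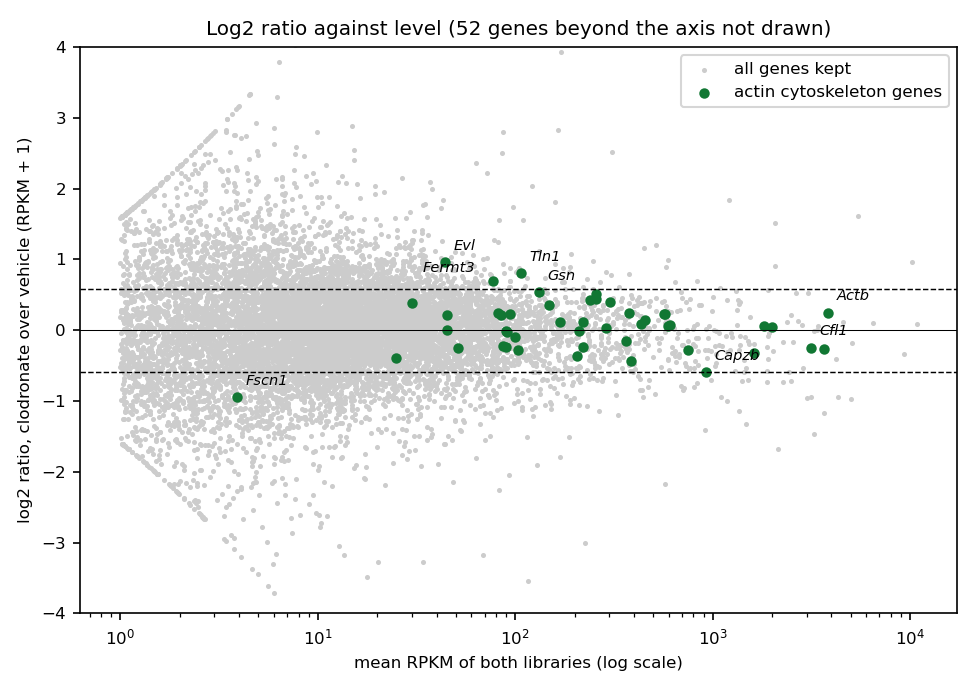
Log2 ratio of clodronate over vehicle RPKM + 1 against the mean RPKM of both libraries on a log axis, for the 47 members (green) and all 10982 genes kept (grey), with dashed lines at 1.5-fold and 52 genes beyond 4 log2 units not drawn. The members lie at high levels and near 0, with Evl, Tln1 and Fermt3 above and Capzb and Fscn1 below the dashed lines.

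The members were among the most abundant transcripts of these cells. Together they held 4.38% of all RPKM in the vehicle and 4.32% in the clodronate library. Of the 47 members 7 ranked among the top 1% of genes kept by mean level and 27 among the top 5%. The median of the members' mean levels was 220.0 RPKM, against 11.3 RPKM for all genes kept. The 5 highest members, Actb, Tmsb4x, Cfl1, Actg1 and Pfn1, are actin itself and the proteins that hold, recycle and deliver its monomers, and they summed to 14721 and 14287 RPKM.

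**Figure D2:**
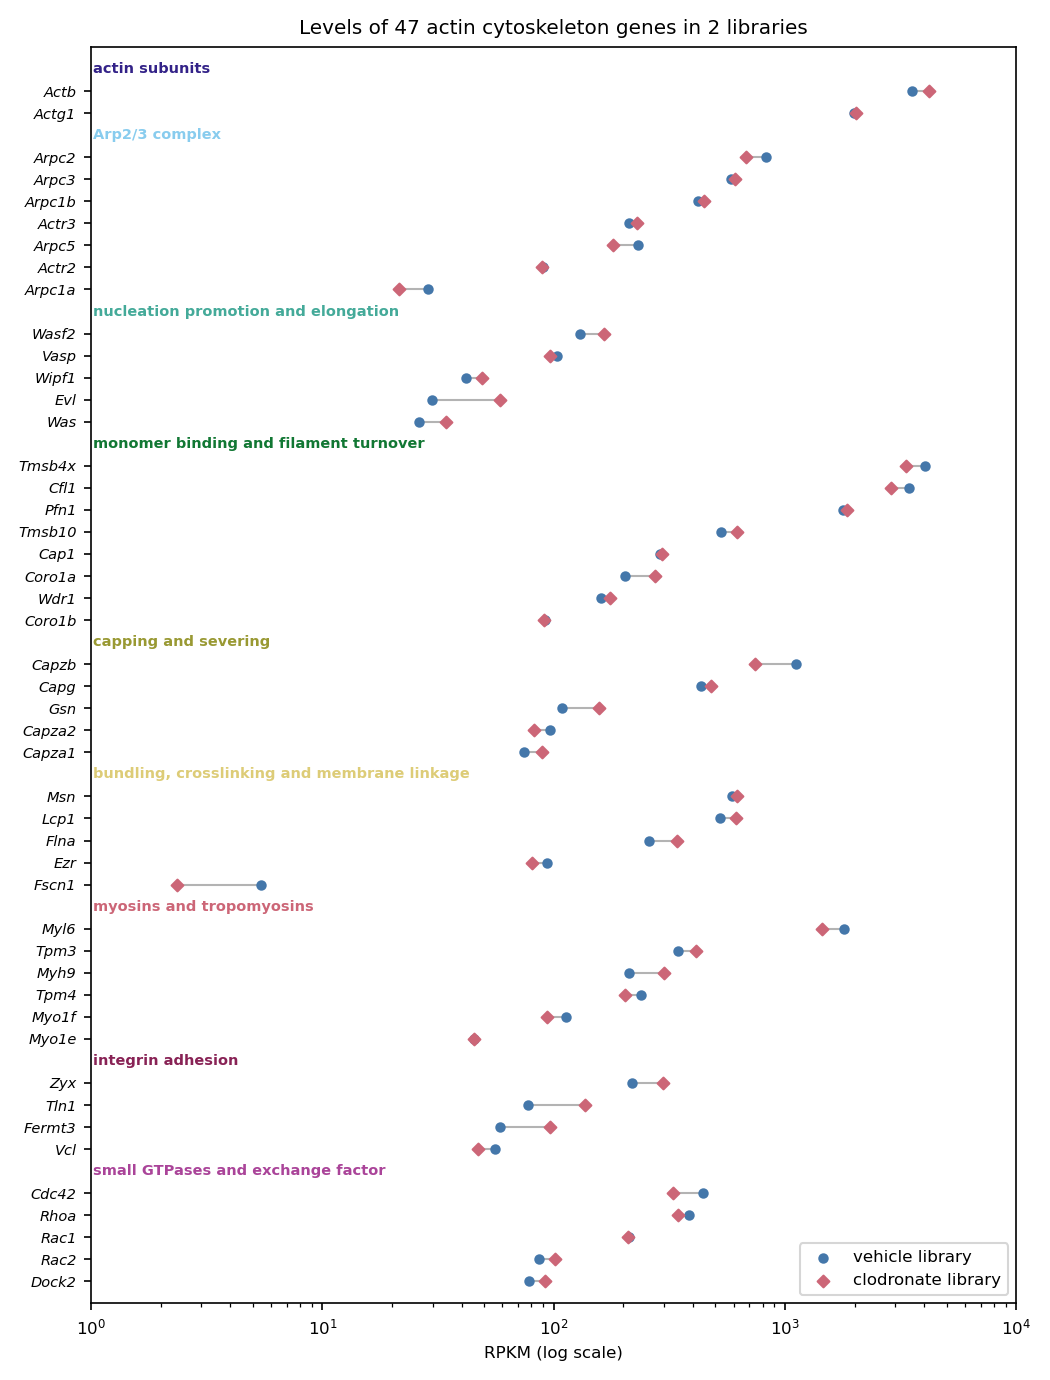
RPKM of each of the 47 members on a log axis in the vehicle library (blue circles) and the clodronate library (red diamonds), grouped by role and ordered by mean level within a role. The levels run from a few RPKM for Fscn1 to 3846 RPKM on average for Actb. The pairs of points lie furthest apart for Fscn1, Evl, Tln1, Fermt3 and Capzb, with Gsn and Myh9 nearly as far apart as Capzb.

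Both cytoplasmic actins were abundant. Actb, β-actin, had 3522 RPKM with vehicle and 4169 RPKM with clodronate, a log2 ratio of 0.24. Actg1, γ-actin, had 1976 and 2034 RPKM, a log2 ratio of 0.04. β-Actin was thus the more abundant form, by 1.78 times in the vehicle and 2.05 times in the clodronate library. In GENCODE M21 transcripts of GRCm38, 56.7% of the 50-base stretches of the Actg1 transcript also occur in transcripts of other genes, mainly of the pseudogene Gm12715, against 14.2% for Actb. How the reads of such stretches were assigned was not given in the sources used here, so the Actg1 value is uncertain.

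The subunits of the Arp2/3 complex, the nucleator of branched filaments, differed far more from each other than between libraries. None of the 7 measured subunits was past 1.5-fold, and their log2 ratios ran from -0.39 for Arpc1a to 0.11 for Actr3, with a median of -0.01. Arpc2, part of the core that grips the mother filament, was the highest with 823 RPKM with vehicle and 680 RPKM with clodronate. Actr2, an actin-related subunit that starts the new branch, had 90.0 and 89.4 RPKM. Its partner Actr3 had 212 and 228 RPKM, and about 49.8% of its transcript is shared with annotated copies. The complex contains one of the alternative subunits ARPC1A and ARPC1B. Arpc1b, the form that prevails in blood cells, had 419 and 446 RPKM, whereas Arpc1a had 28.6 and 21.5 RPKM. Arpc1b thus exceeded Arpc1a by 14.7 times in the vehicle and 20.7 times in the clodronate library, although 42.2% of the Arpc1b transcript matched here is shared with other genes, mainly Pdap1. The other subunits, Arpc3 and Arpc5, had log2 ratios of 0.06 and -0.36.

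Arpc4 was the member that no row carried under its own symbol. A single locus labelled Ttll3, on chromosome 6 of mm9 from 113328106 to 113364565, held 5 RefSeq accessions, of which 3 belong to Arpc4 and 2 to Ttll3, the gene of a tubulin glycylase. This locus had 138 RPKM with vehicle and 120 RPKM with clodronate, a log2 ratio of -0.21. The share of Arpc4 in it cannot be read from these files, and it was left out of every count.

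Among the proteins that switch on nucleation or lengthen filaments, Evl stood out. Evl, a member of the Ena/VASP family that shields growing ends from capping, had 29.7 RPKM with vehicle and 58.7 RPKM with clodronate. Its log2 ratio of 0.96 was the highest of the members, and 0.71 remained after the ratios of all genes were corrected for GC content and transcript length. Vasp, its relative, had 103 and 96.4 RPKM with a log2 ratio of -0.10, or -0.25 after the correction. It was thus not higher with clodronate as Evl was. Evl lies on chromosome 12 of mm9 from 109648864 to 109940516, and 10.7% of the Evl transcript is shared with Degs2. The 3 members that activate Arp2/3 or assist in it had ratios above 0. Wasf2, a WAVE family protein, had 130 and 166 RPKM. Was, the Wiskott-Aldrich syndrome protein, had 26.1 and 34.2 RPKM, and its stabilising partner Wipf1 had 41.9 and 48.8 RPKM. Their log2 ratios of 0.35, 0.38 and 0.22 did not reach 1.5-fold. A further 11 genes of this machinery kept from a wider list had a median log2 ratio of -0.14, among them Wasl with 11.8 and 10.6 RPKM.

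Of the 8 genes for monomer binding and filament turnover none was past 1.5-fold, and their median log2 ratio was 0.04. Tmsb4x, thymosin β4, which holds actin monomers in reserve, had 4024 RPKM in the vehicle, the highest member there, and 3347 RPKM in the clodronate library. Its relative Tmsb10 went the other way, with 526 and 619 RPKM, so that the level of Tmsb4x was 7.65 times that of Tmsb10 in the vehicle and 5.40 times in the clodronate library. About 43.5% of the Tmsb10 transcript is shared with other annotated genes. Cfl1, cofilin, had 3418 and 2884 RPKM, and Pfn1, profilin, had 1781 and 1852 RPKM. Cofilin and thymosin β4 were thus lower and profilin and thymosin β10 higher after clodronate as deposited, but thymosin β4 had a log2 ratio of 0.11 after the correction and profilin was just below 0 under upper-quartile scaling. The coronin of blood cells, Coro1a, had 203 and 274 RPKM with the highest ratio of this role, 0.43, while Coro1b had 91.8 and 90.4 RPKM. Cap1 and Wdr1, helpers of cofilin in filament disassembly, had log2 ratios of 0.03 and 0.12.

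Capping protein closes the growing ends of filaments and is made of an α and a β subunit in equal numbers. Capzb, the β subunit, had 1113 RPKM with vehicle and 738 RPKM with clodronate. Its log2 ratio of -0.59 lies only just past the 1.5-fold line, a log2 ratio of 0.58 in size, and was -0.48 after correction for GC content and transcript length, which is inside the line. The α subunits were far lower and did not share a direction, with 74.7 and 88.7 RPKM for Capza1 and 96.7 and 82.2 RPKM for Capza2, although the log2 ratio of Capza2 moved from -0.23 to 0.02 with the correction. Of the Capza1 transcript 77.4% is shared with annotated copies, the highest share among the members, and none of the Capzb transcript is. Gsn, gelsolin, which severs and caps filaments, had 108 and 157 RPKM, and its log2 ratio of 0.53 lies just inside the line. Capg, a macrophage relative of gelsolin that caps without severing, had 435 and 479 RPKM.

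Proteins that bundle filaments or link them to the membrane were led by moesin and L-plastin. Msn, moesin, had 592 RPKM with vehicle and 622 RPKM with clodronate, and Lcp1, the plastin of blood cells, had 524 and 614 RPKM. Ezr, ezrin, the relative of moesin typical of epithelia, had 93.8 and 80.4 RPKM. Flna, filamin A, which crosslinks filaments into networks, had 259 and 343 RPKM. Fscn1, fascin, was the exception at the low end. It packs filaments into the parallel bundles of filopodia and is known from mature dendritic cells and invasive tumor cells, and it had 5.45 RPKM with vehicle and 2.35 RPKM with clodronate. Its log2 ratio of -0.95 was the lowest of the members and was -1.23 after correction. The fibroblast markers moved the same way, with 8 of the 9 kept below 0, led by Dcn with 77.3 and 28.4 RPKM. The epithelial markers summed to 14.98 and 10.97 RPKM, but of the 4 kept 2 were above 0 and 2 below. Markers of dendritic cells were not among the lists checked. The part of any of these cells in the Fscn1 result was not tested.

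The myosins and tropomyosins had no member past 1.5-fold. Myh9, the heavy chain of non-muscle myosin II, had 211 RPKM with vehicle and 300.4 RPKM with clodronate, a log2 ratio of 0.51. Its light chain Myl6 had 1803 and 1447 RPKM, a log2 ratio of -0.32. This heavy chain and this light chain thus differed in direction, with ratios of 0.19 and -0.09 after the correction, and 53.2% of the short Myl6 transcript is shared with other genes. The tropomyosins, which coat filaments, also differed, with 345 and 410.3 RPKM for Tpm3 and 239 and 203 RPKM for Tpm4. Their log2 ratios were 0.25 and -0.23 as deposited, and 0.29 and only -0.08 after the correction. The class I myosins of macrophages had ratios of -0.28 for Myo1f and 0.00 for Myo1e. Of the Tpm3 transcript 62.4% is shared with an annotated copy, Tpm3-rs7.

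The integrin adhesion genes had the highest median of the 9 roles, 0.57, over only 4 genes. A further 5 adhesion genes kept from the wider list had a median of -0.09 and none past 1.5-fold. Tln1, talin, which opens integrins from inside the cell, had 77.5 RPKM with vehicle and 136 RPKM with clodronate, a log2 ratio of 0.80. Fermt3, kindlin-3, the integrin activator of blood cells that works with talin, had 58.7 and 95.9 RPKM, a log2 ratio of 0.70. The activators of integrins were therefore both past 1.5-fold higher as deposited. After correction for GC content and transcript length their log2 ratios were 0.48 and 0.51, inside the line, and the median of the role was 0.32. Zyx, zyxin, which gathers at adhesions under tension, had 219 and 296 RPKM. Vcl, vinculin, which reinforces the link from talin to actin, went the other way with 56.0 and 46.9 RPKM, and 39.2% of its transcript is shared with Ap3m1. Tln1 lies on chromosome 4 of mm9 from 43544384 to 43575455 and Fermt3 on chromosome 19 from 7070620 to 7093959, with 0.503% and 1.58% of their transcripts shared with other genes.

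**Figure D3:**
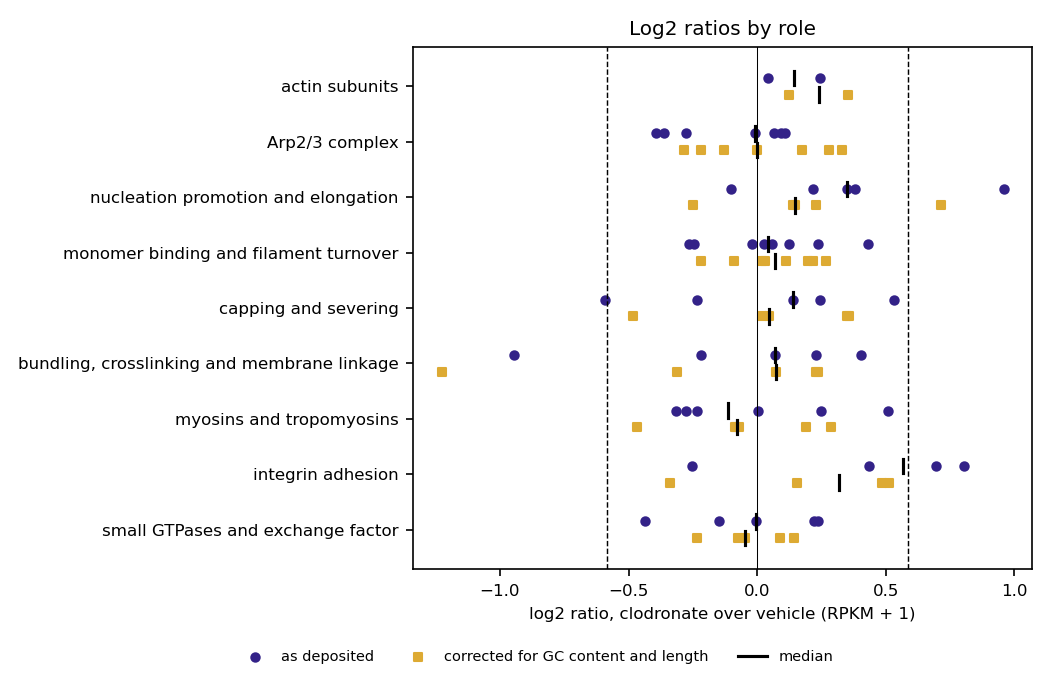
Log2 ratio of clodronate over vehicle RPKM + 1 for the members of each of the 9 roles, as deposited (blue circles) and after correction for GC content and transcript length (yellow squares), with medians as black bars and dashed lines at 1.5-fold. The integrin adhesion median moves from 0.57 to 0.32 and that of nucleation promotion and elongation from 0.35 to 0.15, while the other medians move by less than 0.10.

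None of the small GTPases nor the exchange factor Dock2 was past 1.5-fold. Cdc42, which drives filopodia and cell polarity, had 442 RPKM with vehicle and 326 RPKM with clodronate, the lowest ratio of this role at -0.44. Rhoa, which activates contraction, had 383 and 345 RPKM. Rac1, which drives membrane ruffles through WAVE, had 210.5 and 209.6 RPKM, with 55.0% of its transcript shared with Daglb. Rac2, the Rac of blood cells, had 86.1 and 102 RPKM, and Dock2, the exchange factor that loads Rac in leukocytes, had 78.5 and 91.6 RPKM. The log2 ratios of the last 3 were -0.01, 0.24 and 0.22. The 16 genes of GTPase signalling kept from the wider list had a median of 0.28, with 1 past 1.5-fold.

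Forms typical of blood cells were compared in level with their widely expressed or stromal relatives, in pairs chosen with earlier results of these data known. In 9 of 11 pairs the blood-cell form was the higher in both libraries. Among the pairs with a level above 0 in both libraries the gap was widest for Nckap1l, the blood-cell scaffold of the WAVE complex, with 217 RPKM with vehicle and 248 RPKM with clodronate, against 0.547 and 1.31 RPKM for Nckap1. Fermt3 exceeded Fermt2 by 34.2 times in the vehicle and 84.1 times in the clodronate library, and Fermt2 itself had 1.72 and 1.14 RPKM. Lcp1 exceeded Pls3, the plastin of solid tissues, by 30.2 and 26.1 times. Enah, the Ena/VASP relative of Evl, had 0.542 RPKM in the vehicle library and was listed at 0 in the clodronate library. The exceptions were Rac2, which was below Rac1, and Abi3 with 10.2 and 8.28 RPKM, which was below Abi1 with 92.1 and 73.6 RPKM. Dock1, the more widely expressed relative of Dock2, had 12.1 and 22.5 RPKM, a log2 ratio of 0.84.

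**Figure D4:**
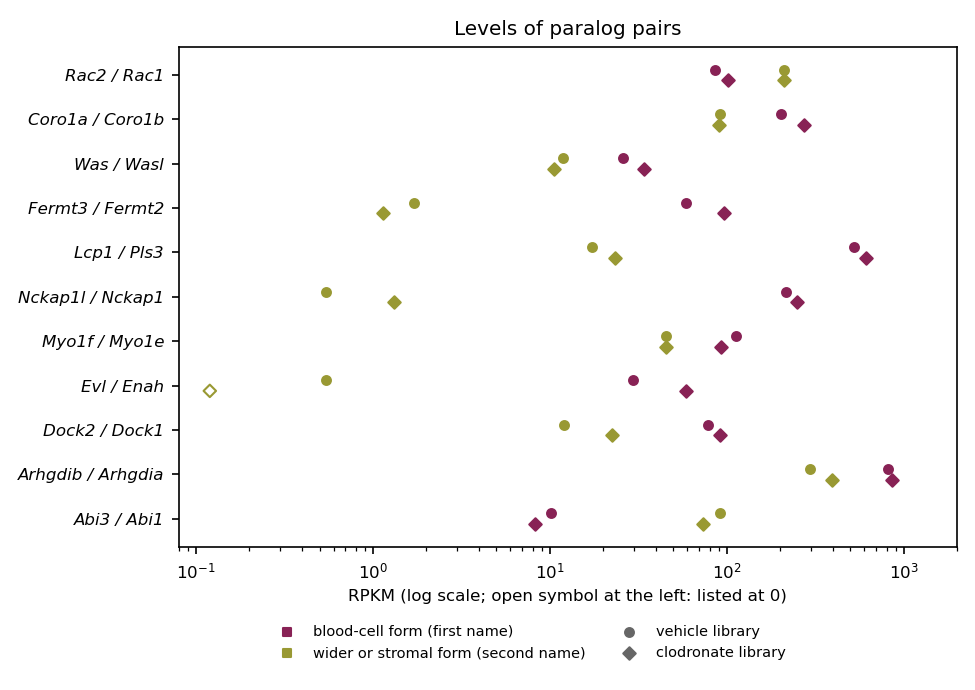
RPKM on a log axis of 11 pairs of related genes, with the blood-cell form in purple, the wider or stromal form in olive, the vehicle library as circles and the clodronate library as diamonds. Purple points lie to the right of olive points in 9 pairs, and the open symbol marks Enah, which was listed at 0 in the clodronate library.

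Other genes of the actin pathway were taken from a list of 74, all found in the files, of which 66 were kept. Past 1.5-fold were 7 higher and 5 lower genes, or 10.6% and 7.58%, against 16.6% and 16.3% of all genes kept. A mean of at least 20 RPKM was reached by 41 of the 66. Of all genes at that level 10.4% were higher and 10.9% lower, which is nearer to the shares of the list. The median log2 ratio of the list was 0.13, and 0.06 after correction for GC content and transcript length. Besides Dock1, the higher genes included the formin Fmnl1 with 73.5 RPKM with vehicle and 113 RPKM with clodronate, the cofilin phosphatase Ssh1 with 17.0 and 27.1 RPKM and radixin (Rdx) with 17.5 and 27.3 RPKM. The muscle-type genes Tpm2 and Acta2 were also among them, at 0.574 and 2.81 RPKM and at 0.138 and 2.03 RPKM. The 6 smooth muscle and pericyte markers, Acta2 among them, summed to 2.45 and 4.54 RPKM, and Cnn1, Des and Rgs5 were listed at 0 in both libraries.

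Among the lower genes of that list, Brk1, the smallest subunit of the WAVE complex, had 293 RPKM with vehicle and 181 RPKM with clodronate, and Dstn, destrin, a relative of cofilin, had 152 and 100.3 RPKM. The muscle-type cofilin Cfl2 had 9.10 and 4.10 RPKM, the formin Daam1 8.85 and 5.29 RPKM, and Pfn2, the profilin of neurons, 3.71 and 0.0489 RPKM. Cfl1, Cfl2 and Dstn, the members of the cofilin family, thus all had ratios below 0, at -0.25, -0.99 and -0.59. After correction for GC content and transcript length Fmnl1, Ssh1, Brk1 and Dstn were inside the 1.5-fold line, at 0.36, 0.47, -0.43 and -0.36. Abi3, Cyfip2 and Limk2, the last 2 named after their values were seen, came to lie past it, at -0.62, -0.69 and -0.75, so that 5 genes of the list were higher and 6 lower.

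The members' ratios moved with the length and base composition of their transcripts. Across the 47 members, which share the same 2 libraries, Spearman's correlation of the log2 ratio was 0.32 with transcript length and 0.40 with GC content, given as a description since genes are not replicates. Across all genes kept that could be matched to a transcript, it was 0.08 with length and 0.24 with GC content. For those with a mean of 20 RPKM or more, which nearly all members reached, it was 0.17 and 0.32. Pearson's correlation with log2 length was 0.31 across the members. It was -0.06 for all matched genes and -0.16 at 20 RPKM or more, so the direction over all genes depended on the measure. The 24 members of at least 2565 nt had a median log2 ratio of 0.17, and the 23 shorter ones -0.10. Of the 6 longest members, from 5267 to 8393 nt, 5 had ratios above 0, namely Wasf2, Dock2, Myh9, Flna and Tln1, and Vcl was the exception. Their median was 0.38. Of the 6 shortest, from 665 to 1400 nt, 4 were above 0 as well, with a median of 0.06. After correction the quartiles of the members were -0.09 and 0.23, and Evl and Fscn1 were the members left past 1.5-fold. What length and GC content contributed to any single gene was not tested.

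**Figure D5:**
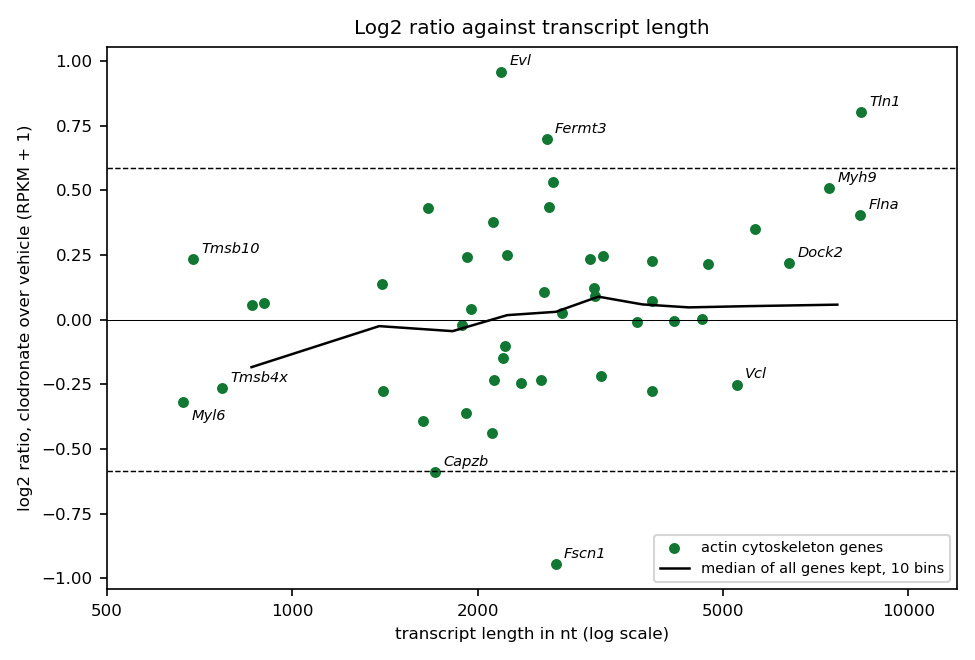
Log2 ratio of clodronate over vehicle RPKM + 1 against transcript length in nt on a log axis, for the 47 members (green points), with the median of all genes kept in 10 bins of length (black line) and dashed lines at 1.5-fold. Of the 6 longest members 5 lie above 0, with Vcl below. The black line is lowest in the shortest bin, at -0.18, and stays between -0.04 and 0.09 in the others, with 0.06 in the longest.

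The 4 members with a CArG box in the promoter had log2 ratios of 0.04 for Actg1, -0.32 for Myl6, 0.00 for Myo1e and -0.25 for Vcl. None of them was past 1.5-fold, against 5 of the 39 members whose promoter held no box. Their median was -0.12, against 0.09 for those 39. Actb, Coro1b, Rac1 and Rac2 had no promoter sequence and were in neither set. A match says only that the letters occur in this window, and the absence of a match says nothing about the factor.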

How the data were processed

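The authors deposited 1 table of RPKM values per library, with 23170 loci that carry identifiers of the form Cufflinks writes, RefSeq accessions, symbols and mm9 positions. The submitters' processing notes name CASAVA 1.8.2, TopHat2 2.0.9, Bowtie 0.12.9, Cufflinks 2.2.1 and Cuffdiff and the build mm9, without the role of each. Since RPKM do not hold read numbers, count models were left out. Of 1160 low loci, 72 had the same ratio of vehicle to clodronate, 0.816, within 0.1%, more than any other. If these hold equal reads, the vehicle library had 1.23 times the reads of the other. Absolute depth is unknown.

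For 26 loci with a number in place of the symbol, the accession was used. Rows of 1 symbol were summed. Log2 ratios used a pseudocount of 1 RPKM and a minimum mean of 1 RPKM. Older symbols were found through RefSeq synonyms. The members, roles and lists were chosen with earlier results of these data known. Any member could be named, and of the other pathway genes those past 1.5-fold, in a pair or among markers. One of the pathway genes past 1.5-fold is not reported here.

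Transcript length and GC content were read from GENCODE M21 transcripts matched by RefSeq accession, for 98.7% of genes kept and all 47 members. The correction subtracted bin medians of the log2 ratio, first over 10 bins of GC content and then over 10 of length. Shared sequence is the share of a member's 50-base stretches found on either strand in transcripts of another gene, whether a copy or an overlapping gene, and neither read length nor strand was given in the sources used here. Coordinates of mm9 and GRCm38 were not combined. Promoters are from RefSeq (GRCm38.p6). The alternatives comprised a pseudocount of 0.1, centring, upper-quartile scaling, the correction, 2-fold, the highest row of a symbol, no small RNA loci, and filters of 0 or 5 RPKM. A filter of 20 RPKM was added after seeing the data. The log2 ratio and the 1.5-fold call were tested on simulated data with planted changes well past that line. The correction and the sequence searches were not part of this test. Python 3.11.15, numpy 2.4.6, pandas 2.3.3, scipy 1.17.1 and matplotlib 3.10.9 were used.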

Additional observations from a re-analysis of the deposited data

How the results depend on the processing

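No paired analysis was possible because vehicle and clodronate have a single library each. Under a pseudocount of 0.1, no filter, centring, upper-quartile scaling, the highest row of a symbol and leaving out small RNA loci, the same 3 members were higher and the same 2 lower. No member has repeated rows, so the highest row could change none of them. At 2-fold 0 members were higher and 0 lower, against 6.95% and 6.77% of all genes kept. After correction for GC content and transcript length 1 member was higher, Evl, and 1 lower, Fscn1, and the role medians of 0.35 for nucleation promotion and elongation and 0.57 for integrin adhesion became 0.15 and 0.32. With filters of 5 and of 20 RPKM 1 member was lower, since Fscn1 no longer passed the filter. The share of all genes past 1.5-fold was 10.3% higher and 9.98% lower without a filter, and 10.4% higher with the filter of 20 RPKM, where by construction other genes make up the background. A change of less than 0.1 in a median log2 ratio was taken as no move, since there are no replicates to give a spread.

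Of the other pathway genes named, Fmnl1, Rdx and Ssh1 were inside 1.5-fold under upper-quartile scaling, at 0.55, 0.55 and 0.58, and Cyfip2 and Limk2 were past it on the lower side. The unknown depth limits what low values such as those of Fscn1, Pfn2 and Acta2 can show.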
